A study of Mus musculus with 5 samples.

Results

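The 10 genes described here are primed and lineage regulators, read in mouse embryonic stem cells (mESCs). Fgf5, Otx2 and Pou3f1 belong to the primed epiblast, and Nodal stands with its inhibitors Lefty1 and Lefty2. T and Eomes belong to the primitive streak, and Gata6 and Gata4 to the primitive endoderm. All 10 were chosen by gene symbol. The protein-coding transcripts with these symbols are 28 of 56903 in the deposited table, or 10 of 21870 genes with a protein-coding transcript. The transcript with the highest mean level stands for each gene. Ribosome footprints were sequenced in 5 libraries, 3 from standard RIBO-seq and 2 from AHARIBO RIBO-seq, in a study of lncRNAs and their contact with ribosomes. The mESCs of both groups were kept in medium with 1000 units/ml of LIF and 10% serum on gelatin, are labelled untreated, and have no genotype, strain or sex in the labels. Cycloheximide was given to all of them to hold ribosomes in place, and unprotected RNA was removed by RNase I (1.3 U, 45 min). Ribosomes were then pelleted through 30% sucrose (standard RIBO-seq) or captured on magnetic beads through azidohomoalanine (AHA), a methionine analogue in the nascent peptide (AHARIBO RIBO-seq), and fragments of 25 to 35 nt were sequenced. A dose of AHA is not restated in the methods of this experiment, nor is the methionine depletion that precedes AHA in the study's labelling protocol. The standard libraries are described as made from the input of the capture. The labels call the libraries of each method biological replicates, and p-values measure the spread between these libraries.

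Naive mESCs resemble the epiblast before implantation, and serum with LIF holds them in a state in which single cells vary in how many lineage genes they express. Nodal is a secreted ligand of the TGF-beta family that signals through Activin receptors and the Tdgf1 co-receptor to Smad2 and Smad3, and its targets include the secreted inhibitors Lefty1 and Lefty2, which close a negative feedback loop. As cells leave the naive state they switch on Fgf5, Otx2 and Pou3f1, and later T and Eomes in the primitive streak, whereas Gata6 and Gata4 drive the primitive endoderm, the sister lineage of the epiblast. A footprint count in a culture does not tell a few cells with much RNA from many cells with little, so that a low level of a lineage gene cannot be assigned to a share of cells.

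Because the capture acts on AHA in place of methionine, the start of the coding part is shown for 5 of the 6 members that reached 1 CPM, a count scaled to the library's depth, in every library. The coding part was read from the Gencode M21 transcript, 5′ to 3′ along the messenger RNA, and capitals mark in-frame ATG codons, which encode methionine. In the GRCm38 genome these stretches of 90 bases lie in an exon each, at chr1:180893184-180893273 on the plus strand for Lefty2, chr10:61418300-61418389 (plus) for Nodal, chr4:124657707-124657796 (plus) for Pou3f1, chr14:48662451-48662540 (minus) for Otx2 and chr9:118478660-118478749 (plus) for Eomes.
Lefty2: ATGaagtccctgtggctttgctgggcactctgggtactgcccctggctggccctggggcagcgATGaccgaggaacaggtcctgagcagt
Nodal: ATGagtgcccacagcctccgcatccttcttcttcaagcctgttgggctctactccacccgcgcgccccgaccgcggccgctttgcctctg
Pou3f1: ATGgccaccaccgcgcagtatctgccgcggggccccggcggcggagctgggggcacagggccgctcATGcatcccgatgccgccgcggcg
Otx2: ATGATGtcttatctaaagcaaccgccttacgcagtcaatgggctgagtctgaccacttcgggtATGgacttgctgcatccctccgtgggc
Eomes: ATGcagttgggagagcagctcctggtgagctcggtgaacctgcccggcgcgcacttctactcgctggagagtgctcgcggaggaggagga
The sequences show a methionine codon beside the start codon in Otx2, and further ones within the printed stretch in Lefty2, Pou3f1 and Otx2. Nodal and Eomes have none after the start codon in this stretch.

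Lefty1 and Lefty2 are neighbours on chromosome 1, have 368 codons each and were identical at 91.8% of coding bases and 89.9% of residues. The longest run of identical bases in their coding parts was 140 nt, several times longer than a footprint, and a read inside it fits both genes. Of all windows of 30 nt in the coding part, 37.9% occurred in both genes. The rule for reads matching several transcripts is not given in the sources used here. Transcripts of the same gene with equal counts in every library, such as a pair of Otx2 transcripts, show that a read can count for several transcripts. Reads that fit both Lefty genes may therefore be in both counts, and the counts of Lefty1 and Lefty2 are not independent of each other. Outside this pair, no member shared more than 1.94% of its windows with transcripts of other genes.

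The libraries held 6403651 to 11150527 counts without duplicates, and 3 counts in a library correspond to 0.262 to 0.476 CPM, a limit that covers counting error only. The highest protein-coding transcripts of all genes together held 27.7% to 28.0% of the counts of a library, so that CPM of one transcript is lower than a value per gene. Markers of mESCs were abundant. Pou5f1 (Oct4, a core pluripotency factor) had 248 to 276 CPM in standard and 214 to 237 CPM in AHARIBO RIBO-seq. Nanog, Sox2, Zfp42 and Esrrb had 87.8 to 196 CPM over all libraries. Of the 14 naive markers listed, Prdm14 (9.07 to 11.6 CPM) and Dppa3 (0.773 to 1.57 CPM, at 1 CPM in 3 libraries) were the lowest by CPM. Of 6 trophoblast and 7 fibroblast markers, 5 each stayed under 1 CPM in every library. The exceptions were the surface protein Thy1 (2.32 to 3.49 CPM in all 5 libraries) and the collagen Col1a1 (0.437 to 1.46 CPM, at 1 CPM in 3 libraries) of the fibroblast list and Ascl2 (0.317 to 1.57 CPM, at 1 CPM in 2 libraries) of the trophoblast list, in which Hand1 was next per kb (0.0999 to 0.476 CPM). The fibroblast genes Dcn and Lum had 0 reads. The part of other cell types in these libraries was not tested.

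The footprints on the regulators were concentrated on the Nodal feedback loop. Lefty1, Lefty2 and Nodal together made up 92.0%, 93.2% and 92.1% of the summed CPM of the 10 genes in the standard libraries (replicate 1 first, as throughout) and 92.8% and 92.4% in the AHARIBO libraries. Reads that fit both Lefty genes may be in both counts, which would raise these shares. At the other end, Fgf5 and T stayed under 1 CPM in every library, and Gata6 and Gata4 crossed 1 CPM in some libraries. Lefty1, Lefty2, Nodal, Pou3f1, Otx2 and Eomes reached 1 CPM in all 5 libraries, as did 10862 of 21870 genes (49.7%).

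**Figure D1:**
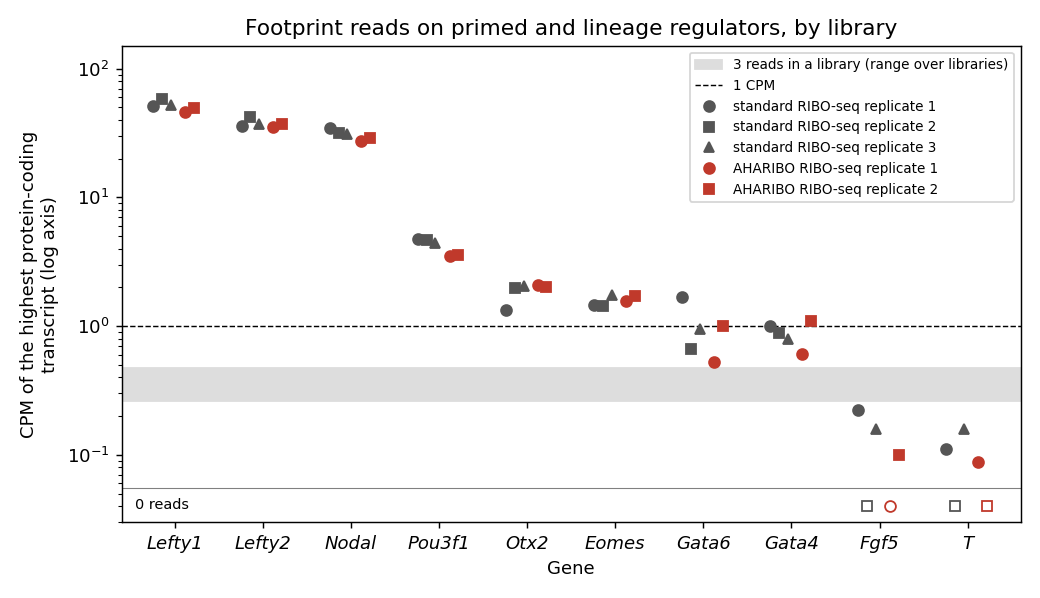
CPM (log axis) of the highest protein-coding transcript of each gene (horizontal axis) in each library, with standard RIBO-seq in grey and AHARIBO RIBO-seq in red, the dashed line at 1 CPM and the grey band at 3 reads in a library. Lefty1, Lefty2 and Nodal sit between 27.3 and 57.9 CPM, Otx2, Eomes, Gata6 and Gata4 lie between 0.525 and 2.10 CPM, and Fgf5 and T lie under the band, with open symbols for libraries with 0 reads.

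Lefty1 (ENSMUST00000037361.8, chromosome 1 from 180935022 to 180938400, 4 exons) was the most abundant member. It had 454, 525 and 331 reads in standard RIBO-seq, or 50.9, 57.9 and 52.5 CPM, and 526 and 499 reads in AHARIBO RIBO-seq, or 46.0 and 49.8 CPM. Both AHARIBO libraries lay just under the lowest standard library. Per kb of transcript its mean level was 31.7 CPM, rank 850 of 21870 genes. Its log2 fold change, AHARIBO over standard RIBO-seq, was -0.17 (standard error 0.09, 95% interval -0.34 to 0.00, adjusted p = 0.273 in edgeR's quasi-likelihood test).

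Lefty2 (ENSMUST00000085797.5, chromosome 1 from 180893108 to 180899103, 4 exons) encodes the second inhibitor of the pair. It had 319, 380 and 233 reads in standard RIBO-seq, or 35.7, 41.9 and 37.0 CPM, and 400 and 373 reads in AHARIBO RIBO-seq, or 35.0 and 37.2 CPM. The groups overlapped, and the log2 fold change was -0.09 (standard error 0.09, 95% interval -0.27 to 0.09, adjusted p = 0.661 in edgeR's test). Per kb it stood at 15.1 CPM, and Lefty1 was 2.01 to 2.17 times higher per kb of transcript over the 5 libraries. The coding parts are equally long, and per kb of coding part Lefty1 was 1.31 to 1.42 times higher (means 46.6 and 33.9 CPM per kb). Each Lefty gene also has a retained-intron transcript, at a mean of 19.8 CPM for Lefty1 and 13.4 CPM for Lefty2. These transcripts hold 75.5% and 65.4% of their 30-nt windows in common with the coding transcript of the same gene, so their counts are no separate measure of the intron.

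Nodal (ENSMUST00000049339.6, chromosome 10 from 61417972 to 61425338, 3 exons), the ligand that the Lefty proteins oppose, had 310, 289 and 195 reads in standard RIBO-seq. These correspond to 34.7, 31.9 and 30.9 CPM, against 27.3 and 28.9 CPM from 312 and 289 reads in AHARIBO RIBO-seq. The groups did not overlap, with means of 32.5 ± 1.97 CPM (SD, n = 3) in standard and 28.1 ± 1.10 CPM (SD, n = 2) in AHARIBO RIBO-seq. The difference of -0.22 on the log2 scale (standard error 0.09, 95% interval -0.40 to -0.03) had an unadjusted p of 0.0218 and an adjusted p of 0.174 in edgeR's quasi-likelihood test, so Nodal did not pass. Nodal stood at 14.7 CPM per kb. The ratio of Lefty2 to Nodal per kb was 0.872 to 1.11 over the libraries and above 1 in 4 of 5, and their ranges overlapped.

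Of Pou3f1, Otx2 and Fgf5, the regulators of the primed epiblast, Pou3f1 (Oct6, a POU-domain factor) had the highest CPM. Its transcript (ENSMUST00000053491.8, chromosome 4 from 124656807 to 124660655, 1 exon) had 42, 42 and 28 reads in standard RIBO-seq, or 4.71, 4.64 and 4.44 CPM, and 40 and 36 reads in AHARIBO RIBO-seq, or 3.50 and 3.59 CPM. Both AHARIBO libraries were below all standard libraries, with means of 3.55 ± 0.0674 CPM (SD, n = 2) against 4.59 ± 0.136 CPM (SD, n = 3) in standard RIBO-seq. These SDs are smaller than the counting error of 28 to 42 reads, which the fit allows for, and the fitted log2 difference was -0.38 (standard error 0.21, 95% interval -0.79 to 0.04, adjusted p = 0.328 in edgeR's test). Nodal was 12.6 to 14.7 times higher than Pou3f1 per kb in each library.

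Otx2, a homeodomain factor of the primed epiblast and later of the anterior brain, was near 2 CPM. The transcript ENSMUST00000226501.1 (chromosome 14 from 48657677 to 48667515, minus strand, 6 exons) had 12, 18 and 13 reads in standard RIBO-seq, or 1.34, 1.99 and 2.06 CPM, and 24 and 20 reads, or 2.10 and 2.00 CPM, in AHARIBO RIBO-seq. The groups overlapped, and the fitted difference, 0.21 on the log2 scale (standard error 0.32, 95% interval -0.42 to 0.84), had an adjusted p of 0.786 in edgeR's test. Without standard RIBO-seq replicate 1, the lowest library, the difference was 0.02. A second Otx2 transcript, ENSMUST00000118578.8, held the same count in every library, and the longer one was taken. Fgf5, a secreted growth factor often used as the defining marker of the primed state, had 2, 0 and 1 reads in standard and 0 and 1 reads in AHARIBO RIBO-seq (ENSMUST00000031280.1, chromosome 5 from 98254184 to 98277030, 3 exons). These 4 reads in 5 libraries correspond to 0.0875 CPM (exact Poisson 95% interval 0.0238 to 0.224, counting error only), and a difference between the methods was not detectable at this depth.

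Of the primitive streak factors, T (Brachyury, a T-box factor of nascent mesoderm) had 1, 0 and 1 reads in standard and 1 and 0 reads in AHARIBO RIBO-seq (ENSMUST00000074667.8, chromosome 17 from 8434423 to 8442496, 8 exons). The 3 reads correspond to 0.0656 CPM (exact Poisson 95% interval 0.0135 to 0.192). Eomes, the T-box factor that acts in mesendoderm and trophoblast, was above this level in every library. Its transcript (ENSMUST00000035020.14, chromosome 9 from 118478344 to 118486132, 6 exons) had 13, 13 and 11 reads in standard RIBO-seq, or 1.46, 1.43 and 1.75 CPM, and 18 and 17 reads, or 1.57 and 1.70 CPM, in AHARIBO RIBO-seq. The groups overlapped (log2 fold change 0.10, standard error 0.35, interval -0.60 to 0.80, adjusted p = 0.922 in edgeR's test), and with duplicate reads kept the fitted value turned to -0.31.

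The primitive endoderm factors lay near 1 CPM. Gata6 (ENSMUST00000047762.7, chromosome 18 from 11052470 to 11085635, 7 exons), a zinc-finger factor that specifies this lineage, had 15, 6 and 6 reads in standard RIBO-seq, or 1.68, 0.662 and 0.952 CPM, and 6 and 10 reads in AHARIBO RIBO-seq, or 0.525 and 0.999 CPM. It reached 1 CPM in standard RIBO-seq replicate 1 alone and entered the test through that library. Its log2 fold change was -0.56 (standard error 0.51, interval -1.60 to 0.47, adjusted p = 0.606 in edgeR's test). Without standard RIBO-seq replicate 1 it was -0.07, and over the other libraries left out in turn it ran from -0.15 (without AHARIBO RIBO-seq replicate 1) to -1.06 (without AHARIBO RIBO-seq replicate 2). Gata4 (ENSMUST00000067417.9, chromosome 14 from 63198922 to 63245271, minus strand, 7 exons), which acts with Gata6, had 9, 8 and 5 reads in standard RIBO-seq, or 1.01, 0.883 and 0.793 CPM, and 7 and 11 reads in AHARIBO RIBO-seq, or 0.612 and 1.10 CPM. The libraries of the methods overlapped for both genes, and for Gata4 the log2 fold change was -0.10 (standard error 0.51, interval -1.14 to 0.93, adjusted p = 0.946), and leaving out single libraries gave -0.55 (without AHARIBO RIBO-seq replicate 2) to 0.28 (without AHARIBO RIBO-seq replicate 1), with -0.01 without standard RIBO-seq replicate 1. Counted with duplicate reads, both genes fell short of 1 CPM in every library, which makes 4 members under 1 CPM instead of 2.

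By level per kb of transcript, the order was Lefty1 (31.7 CPM per kb), Lefty2 (15.1), Nodal (14.7), Pou3f1 (1.08), Otx2 (0.732), Eomes (0.444), Gata6 (0.302), Gata4 (0.259), Fgf5 (0.0386) and T (0.0350). Ranges over the libraries overlapped for the neighbours Lefty2 and Nodal, Eomes and Gata6, Gata6 and Gata4, and Fgf5 and T, so the order within these pairs is not resolved. Whether the ranges of Pou3f1 and Otx2, and of Otx2 and Eomes, lie apart depends on the transcript taken, as alternatives chosen after seeing the data showed, although the ranks by mean level were the same. With the shorter Otx2 transcript of equal counts (2144 nt) Otx2 had 0.627 to 0.979 CPM per kb against 0.909 to 1.22 for Pou3f1, which was higher in 4 of 5 libraries. With the second Eomes transcript (ENSMUST00000111763.7, 2869 nt) Eomes had 0.462 to 0.664 CPM per kb against 0.519 to 0.810 for Otx2, so these ranges overlapped too. Among all 21870 genes, Lefty1 stood at percentile 96.1, Nodal at 90.8, Pou3f1 at 57.5, Gata4 at 44.3 and T at 27.4. With coding length in place of transcript length, the ranks of Gata6 and Gata4 changed places and the other ranks were the same.

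Between the methods, no regulator passed the test. Of the 10 genes, 8 reached 1 CPM in at least one library and were tested, and 0 of 8 had an adjusted p under 0.05 in edgeR's quasi-likelihood test, against 5.12% of the highest protein-coding transcripts of all genes (634 of 12372, with 321 higher and 313 lower in AHARIBO RIBO-seq). Without adjustment 1 of the 8, Nodal, had p under 0.05 in edgeR's test, as did 2401 of the 12372 highest transcripts of all genes. DESeq2, which gave an adjusted p for 3 members, called 0 of them, against 312 of 22825 transcripts. Over single transcripts, 0 of the 16 protein-coding member transcripts tested were called, against 4.51% of all transcripts tested. The fitted value was lower in AHARIBO RIBO-seq for 6 members and higher for 2, with a median log2 fold change of -0.14 beside -0.003 over the highest transcripts of all genes. Among the 6 is Gata6, which entered the test through standard RIBO-seq replicate 1 alone, so that the filter had a part in its sign, and without Gata6 the median was -0.10 over 7 members. Of the 6 members at 1 CPM in every library, 4 had a lower and 2 a higher fitted value, with a median of -0.13. Pou3f1, Nodal and Lefty1, 3 of 8 members (37.5%), had groups that did not overlap, all lower in AHARIBO RIBO-seq, and the groups did not overlap for 34.3% of all genes tested. The intervals bound the differences to between 0.756- and 0.977-fold for Nodal and between 0.789- and 1.00-fold for Lefty1, whereas Gata4 could lie anywhere from 0.455- to 1.90-fold.

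**Figure D2:**
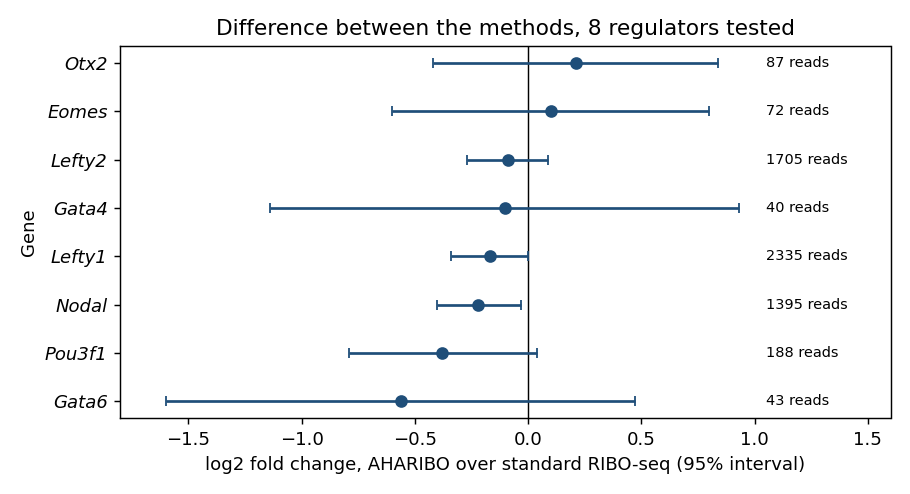
Log2 fold change of AHARIBO over standard RIBO-seq (horizontal axis; point: fitted value, bar: 95% interval) for the 8 regulators tested (vertical axis), with the reads summed over 5 libraries at the right. The intervals of Lefty1, Lefty2 and Nodal, with 1395 to 2335 reads, are the narrowest, and the interval of Nodal (-0.40 to -0.03) lies below 0 although its adjusted p was 0.174.

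Other genes of the Nodal pathway spanned a wide range, and 3 of them stood above Nodal per kb. Of 24 other pathway genes, 18 were tested and 0 were called in either direction, beside the 5.12% called among all genes. Their median log2 fold change was 0.01. Tdgf1 (Cripto, the co-receptor of Nodal) was highest at 72.7 CPM per kb, with 134, 143 and 141 CPM in standard and 140 and 144 CPM in AHARIBO RIBO-seq. Gdf3, a related ligand that can signal through the same receptors, had 40.1, 48.8 and 47.9 CPM in standard RIBO-seq and 47.2 CPM in both AHARIBO libraries. For both genes the methods overlapped. The 6 pathway genes under 1 CPM in every library were Cfc1, Inhba, Pcsk5, Acvr1c, Cer1 and Dand5. Among them are Cer1 and Dand5, secreted antagonists of Nodal other than the Lefty proteins. The receptors Acvr1b, Acvr2a and Acvr2b and the mediators Smad2, Smad3 and Smad4 were above 1 CPM in every library.

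Other genes of the formative and primed epiblast gave a mixed picture. Of 18 genes, 14 were tested and 2 passed, both lower in AHARIBO RIBO-seq, beside the 5.12% called among all genes. Utf1, a chromatin-bound factor, had 193, 187 and 195 CPM in standard and 143 and 159 CPM in AHARIBO RIBO-seq (log2 fold change -0.34, standard error 0.08, adjusted p = 0.00484 in edgeR's test). Tcf15, a basic helix-loop-helix factor linked to priming, had 42.5, 43.4 and 34.4 CPM against 29.7 and 33.6 CPM (log2 fold change -0.36, standard error 0.09, adjusted p = 0.0166). The groups did not overlap for either gene. Neither passed without AHARIBO RIBO-seq replicate 1 (adjusted p = 0.179 and 0.348 in edgeR's test) or without standard RIBO-seq replicate 1 (0.0671 and 0.132), and Tcf15 did not pass without standard RIBO-seq replicate 2 (0.0729) or in DESeq2 (0.191). With transcripts summed per gene the adjusted p was 0.0975 for Utf1 and 0.208 for Tcf15, and with the replicate number as a block it was 0.0971 for Utf1. Sall2, Fgf8, Wnt8a and Car14 were under 1 CPM in every library, as Fgf5 was. The median log2 fold change of the 14 genes was -0.15.

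Primitive streak and mesendoderm genes other than T and Eomes were low. Of 13 genes, 12 were under 1 CPM in every library, among them Mixl1, Gsc, Mesp1 and Sp5, and the summed level of the list was 4.30 to 5.94 CPM in standard and 4.37 to 4.69 CPM in AHARIBO RIBO-seq. Hhex, a homeodomain factor of anterior endoderm, was the exception with 1.66 to 2.91 CPM in standard and 1.40 and 2.30 CPM in AHARIBO RIBO-seq. Genes of the primitive endoderm differed widely from each other. Of 13 genes, 11 were tested and 0 called (5.12% among all genes). The extracellular matrix genes Lama1 (125 to 159 CPM in standard RIBO-seq) and Sparc (45.0 to 53.5 CPM) held most of the summed 232 to 280 CPM, whereas the transcription factors of the list were low. Sox7 had 2.58, 2.21 and 3.33 CPM in standard and 2.01 and 1.90 CPM in AHARIBO RIBO-seq, Sox17 reached 1 CPM in 4 of 5 libraries (0.787 to 2.22 CPM), and Foxa2 and Hnf4a stayed under 1 CPM in every library. Both matrix genes are also made outside this lineage.

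Genes of the naive list, which also holds the core pluripotency factor Pou5f1, were far more abundant than most regulators. Their median level was 48.7 CPM per kb over 14 genes, and 11 of them were above Nodal per kb. Of the 14, 5 passed the test, beside the 5.12% called among all genes, with Klf2 (log2 fold change -0.46), Klf4 (-0.34), Sox2 (-0.32) and Nr0b1 (-0.26) lower and Tfcp2l1 (0.28) higher in AHARIBO RIBO-seq. The adjusted p ranged from 0.000177 for Klf2 to 0.0396 for Nr0b1 in edgeR's test. Without AHARIBO RIBO-seq replicate 1 or standard RIBO-seq replicate 1, Klf2 passed (adjusted p = 0.0193 and 0.0119) and the other 4 did not, with 0.134 to 0.396 and 0.0809 to 0.210. Without standard RIBO-seq replicate 3 Tfcp2l1 (0.0728) and Nr0b1 (0.0586) did not pass, and without replicate 2 Nr0b1 did not (0.0880). Nr0b1 also did not pass with library sizes in place of TMM factors (0.0606) or with duplicates kept (0.116), nor did Tfcp2l1 with duplicates kept (0.219). With transcripts summed per gene none of the 5 passed (0.0654 for Klf2 to 0.157 for Nr0b1). In DESeq2 (0.0609 for Klf4 to 0.124 for Tfcp2l1) and with the replicate number as a block (0.0881 for Klf4 to 0.187 for Nr0b1) Klf2 was the only one of the 5 to pass. Their standard errors were 0.08, close to the 0.09 of Lefty1, Lefty2 and Nodal, and whether the lists differ from the regulators was not tested. Of 7 neural markers, 5 were tested and 0 called (5.12% among all genes). The highest per kb were Tubb3, a tubulin (36.3 to 36.8 CPM in standard RIBO-seq), and Sox1, a factor of the early neural plate (12.4 ± 0.433 CPM, SD, n = 3).

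**Figure D3:**
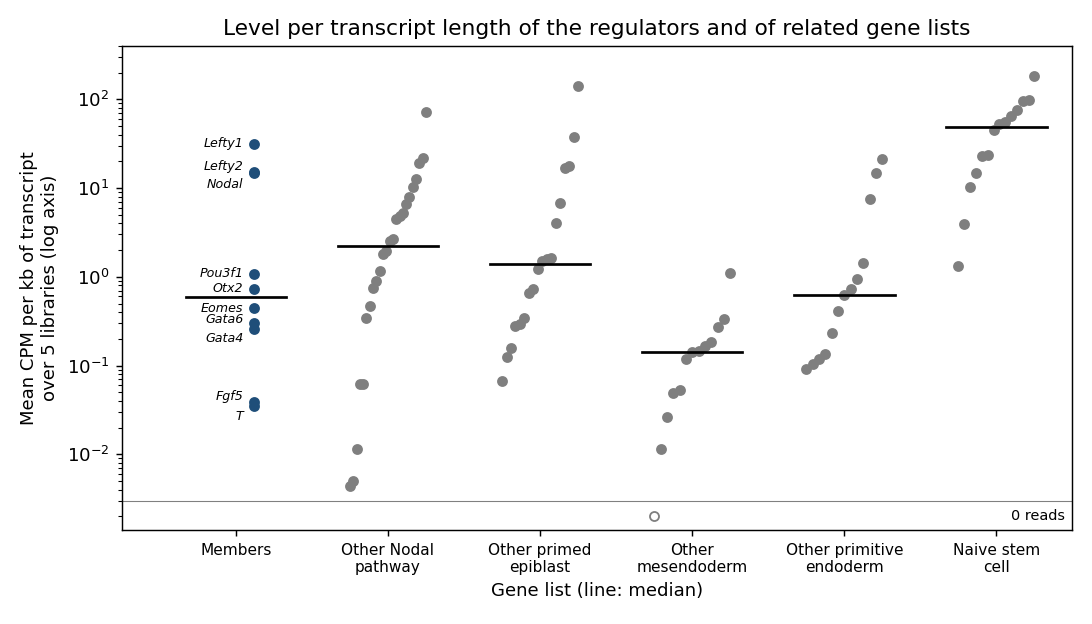
Mean CPM per kb of transcript over the 5 libraries (log axis) for each gene of the lists on the horizontal axis, with the 10 regulators named and the line at the median of each list. Lefty1, Lefty2 and Nodal lie within the range of the naive genes but below their median (48.7), whereas Fgf5 and T lie below the median of the other mesendoderm genes (0.143).

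The coding parts of the members differ in how many methionine codons they offer. Eomes has 15 in 707 codons, T 12 in 436, Gata6 11 in 589, Gata4 11 in 442, Lefty2 10 in 368, Otx2 9 in 289, Pou3f1 8 in 449, Lefty1 8 in 368, Nodal 7 in 354 and Fgf5 2 in 264. Over all genes tested, the median number of methionine codons was 10, the median number of codons 462, and the median of methionine codons per 100 codons 2.13. After the start codon, the next methionine codon comes at codon 2 in Otx2, 7 in Gata4, 22 in Lefty2, 23 in Pou3f1, 45 in Nodal, 51 in Lefty1, 62 in T, 89 in Eomes, 142 in Fgf5 and 147 in Gata6. Lefty2 has the 8 methionine codons of Lefty1 at the same positions and 2 more, at codons 22 and 91. Their log2 fold changes, -0.09 for Lefty2 and -0.17 for Lefty1, had standard errors of 0.09 each, and their difference was not tested because the genes share reads.

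**Figure D4:**
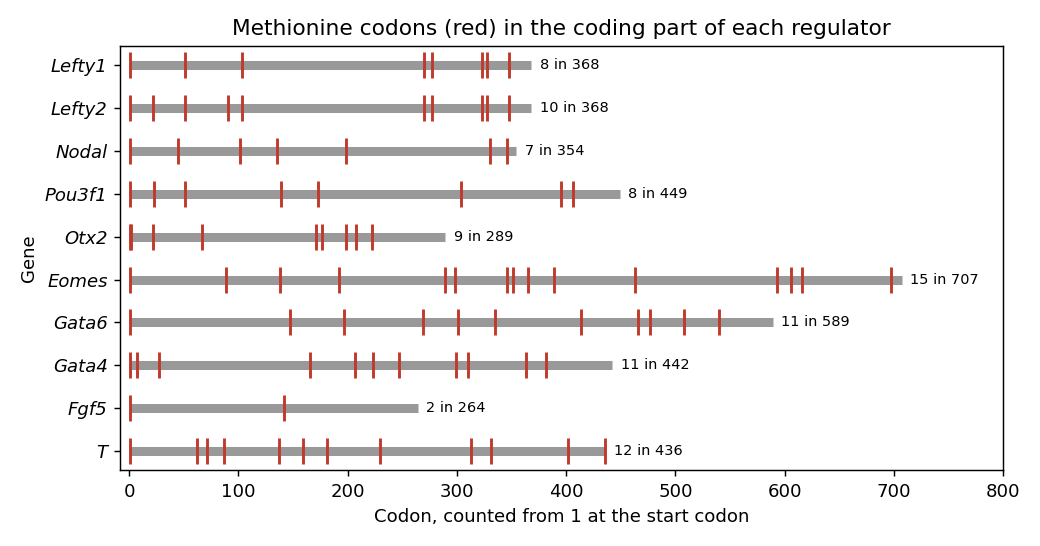
Positions of methionine codons (red) along the coding part (grey, in codons from the start codon) of each regulator, with their number and the number of codons at the right. Fgf5 has 1 methionine codon after the start codon, and Lefty1 and Lefty2 have 8 positions in common.

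Coding length moved with the difference between the methods across genes. Over the 12279 genes tested with a coding part at hand, Spearman's rho of the log2 fold change with the number of codons was 0.280, and with the number of methionine codons 0.256. Over 5998 genes with a mean of at least 10 CPM, the values were 0.457 and 0.437, whereas with methionine codons per codon it was 0.006. These coefficients run across genes, which share the libraries and are not independent replicates. The median log2 fold change was -0.14 for genes under 200 codons, -0.06 for 824 genes of 300 to 400 codons and 0.11 for genes of 1000 codons or more. Lefty1, Lefty2 and Nodal, with 354 to 368 codons, belong to the class of 300 to 400 codons, in which the quartiles were -0.16 and 0.05 and 64.4% of genes had a lower fitted value in AHARIBO RIBO-seq. Lefty2 (-0.09) was within these quartiles, and Lefty1 (-0.17) and Nodal (-0.22) were below the lower one. The part of coding length in the values of the regulators was not tested.

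**Figure D5:**
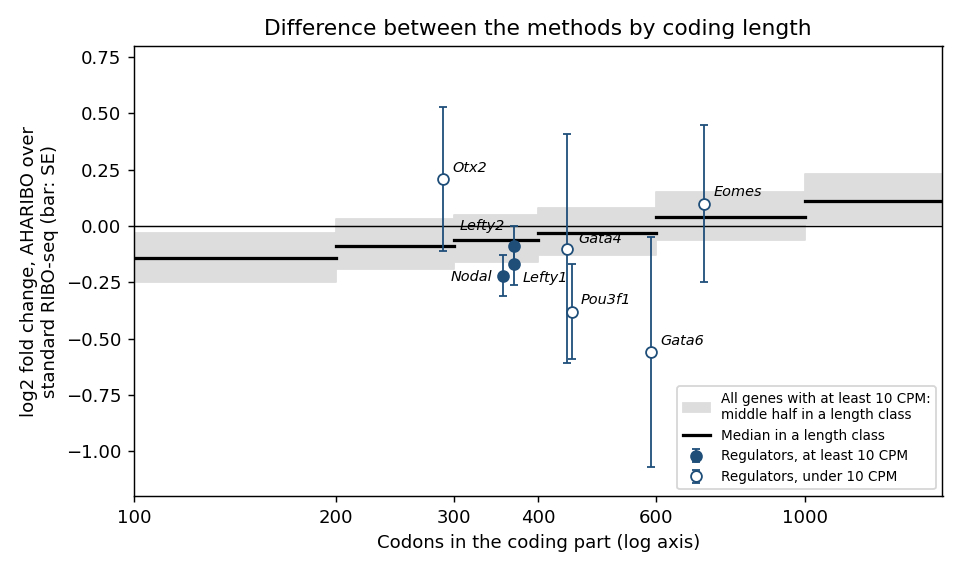
Log2 fold change of AHARIBO over standard RIBO-seq (bar: standard error) against the number of codons (log axis) for the 8 regulators tested, over the median (line) and quartiles (grey) of all genes with at least 10 CPM in length classes, the outer classes being drawn to the edge of the plot. Medians go from -0.14 in the shortest to 0.11 in the longest class, and filled points mark Lefty1, Lefty2 and Nodal.

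The genes whose levels over the 5 libraries were most like those of Lefty1, by the root mean square difference of log2(CPM + 0.5), were Rnaseh2a (0.033), Zscan10 (0.053) and Dynlt1a (0.053). Rnaseh2a had 50.9, 55.3 and 53.3 CPM in standard and 45.6 and 49.1 CPM in AHARIBO RIBO-seq. The mean levels of these 3 genes were 50.8 to 52.2 CPM, and the measure weighs the mean level together with the pattern over libraries. Duplicate reads, which were removed before all these values, made up 24.4% of the reads on Lefty1, 20.8% on Lefty2, 14.7% on Nodal and 4.57% on Pou3f1, against 43.3% to 47.7% of all reads of a library.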

How the data were processed

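Ribosome profiling libraries of mESCs were analysed from 1 table, deposited by the authors, which gives unnormalized read counts for each transcript (with and without duplicates) and transcript lengths. Per the labels and methods, reads were trimmed (Trimmomatic 0.36), rRNA and tRNA reads removed, the rest aligned with STAR to Gencode M17 transcripts (GRCm38) and antisense and duplicate reads removed. Molecular identifiers are not mentioned in the methods, and without them separate fragments that share both ends would be lost in that step. Columns of per-sample values left unused were 0. Symbols, types and coding parts came from Gencode M21, where 99.8% of 135276 transcripts were found by identifier without version. The M21 version of the Gata6 transcript (3234 nt) differs from the deposited one (3194 nt), and its codons are those of M21.

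CPM with TMM scaling came from edgeR 4.0.16 (run in R 4.3.3). Its quasi-likelihood test was run on the 66972 transcripts that reached 1 CPM in any library, with Benjamini-Hochberg adjustment over all of them. The standard errors, taken from F values, are approximate. As an alternative, DESeq2 1.42.0 was used. Libraries of one method differed by more than sampling noise (chi-square per degree of freedom 1.22 to 1.86). Named genes were the members, 5 markers of mESCs, the called and the 2 highest genes of each list and the 3 genes most like Lefty1. Other list genes, among them Prdm14, Dppa3, Dcn, Lum and those named for lying above or under 1 CPM, were picked after their values were seen. Some items are not reported here. Members, lists and tests were chosen with earlier results of these data known.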

Additional observations from a re-analysis of the deposited data

How the results depend on the processing

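No member was called under any of the alternatives for the test, normalization, filter, duplicates, transcript choice or left-out library. Of 100 member fold changes under alternatives, 97 kept their sign and 3 did not, Gata4 with transcripts summed per gene (0.01) and without AHARIBO RIBO-seq replicate 1 (0.28, against -0.55 without replicate 2), and Eomes with duplicate reads kept (-0.31), and the smallest adjusted p was 0.149. The count of all transcripts called, 3021, moved to 312 with DESeq2 (22825 transcripts with an adjusted p), 647 with 1 transcript per gene among 12372 tested, and 28 with transcripts summed per gene among 14504 tested. Leaving out single libraries gave 510 (without AHARIBO RIBO-seq replicate 1) to 3829 calls, with 1173 without standard RIBO-seq replicate 1 and 1815 without standard RIBO-seq replicate 3. The cause was not tested. With the replicate number as a block 1792 transcripts and 0 members were called. Same-number correlations of deviations were 0.039 and -0.083. The deviations of 2 AHARIBO libraries from their mean mirror each other, so these values cannot decide whether the libraries were paired. The 7 called genes of the lists kept their direction under all 13 alternatives. Summed per gene, none of them passed (Klf2 had an adjusted p of 0.0654), and with DESeq2 Klf4, Nr0b1, Sox2, Tcf15 and Tfcp2l1 did not pass. Under the block Klf4, Nr0b1, Sox2, Tfcp2l1 and Utf1 did not. Members under 1 CPM numbered 2 except 4 with duplicates kept and 4 when falling short in at least one library was enough, in both cases Fgf5, T, Gata6 and Gata4. Scaled to the counts on the highest transcripts, an alternative chosen after seeing the data, the number was 2, with at most 0.796 CPM on that scale for Fgf5 and 0.565 CPM for T. Gata6 and Gata4 were above 1 CPM on that scale in every library. Counts under 100 reads limit Otx2, Eomes, Gata6 and Gata4.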
